A study of Mus musculus with 2 samples.

Results

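The genes described are 9 transcriptional regulators that set the fate of B cells, as their transcripts were read in antigen-presenting cells (APCs) of the mouse spleen. They are Pax5, Ebf1, Spib, Pou2af1, Foxo1, Bcl6, Bach2, Prdm1 and Xbp1, chosen by name. All 9 were on the array. A single gene symbol of a member marked 23 of 45037 probe sets other than controls, and 18193 genes in all were named through such symbols. Wild-type C57BL/6 females aged 10 weeks gave the spleen APCs, which spent a night in culture with CD4+ T cells bearing the transgenic P25 receptor, in 1 condition with P25 and in the other with medium alone. P25 is a mycobacterial peptide that this receptor recognises on MHC class II. Both conditions therefore contained the T cells, and P25 itself was the difference. The APCs were enriched after culture, and RNA mixed from 3 independent experiments went onto 1 whole-genome Affymetrix array per condition.

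Mature B cells are held in their state by a network of transcription factors. PAX5 and EBF1 switch on and maintain B cell genes, SPI-B and the coactivator POU2AF1 (OBF-1) act on many of the same promoters, and FOXO1 drives genes of resting and recirculating lymphocytes until PI3K and AKT signalling moves it out of the nucleus. BCL6 runs the germinal centre reaction, and both BCL6 and BACH2 restrain Prdm1. Prdm1 encodes BLIMP-1, which extinguishes the B cell programme in plasma cells, and XBP1 then expands the secretory pathway.

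Signals are MAS5 values on a linear scale, and a difference is given as the log2 ratio of the P25 signal over the medium signal. Signals under 10.3, the 40th percentile over both arrays, were raised to that floor, and a gene with a signal above the floor on either array counted as measured. Each gene was represented by its brightest probe set, and 2-fold was the threshold for counting. Since each condition had 1 array, no p-value can be given, and every difference describes these arrays. As a gauge of technical disagreement, the log2 ratios of the 2 brightest probe sets of a gene differed with an SD of 0.58 over 5293 genes, and of 0.44 over 2318 genes with signals of 100 or more on both arrays.

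Of the 9 regulators, 8 had a lower signal with P25 and Xbp1 had a higher one. Foxo1 and Ebf1 were at least 2-fold lower, and no member was at least 2-fold higher. Over 12897 measured genes 7.22% were at least 2-fold lower, 9.43% at least 2-fold higher and 48.6% below a log2 ratio of 0. The median log2 ratio of the members was -0.63, against 0.02 over all measured genes. On both arrays 21 member probe sets exceeded the floor. Of these 17 had a log2 ratio below 0, and the 4 above 0 all belonged to Xbp1. Ordered from lowest to highest, the brightest probe sets ran Foxo1, Ebf1, Bcl6, Spib, Pax5, Bach2, Prdm1, Pou2af1 and Xbp1. Neighbours in that order lay 0.35 or less apart in log2 ratio, within the probe set disagreement of 0.44, up to Pou2af1. The step from Pou2af1 to Xbp1 was 0.66.

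**Figure D1:**
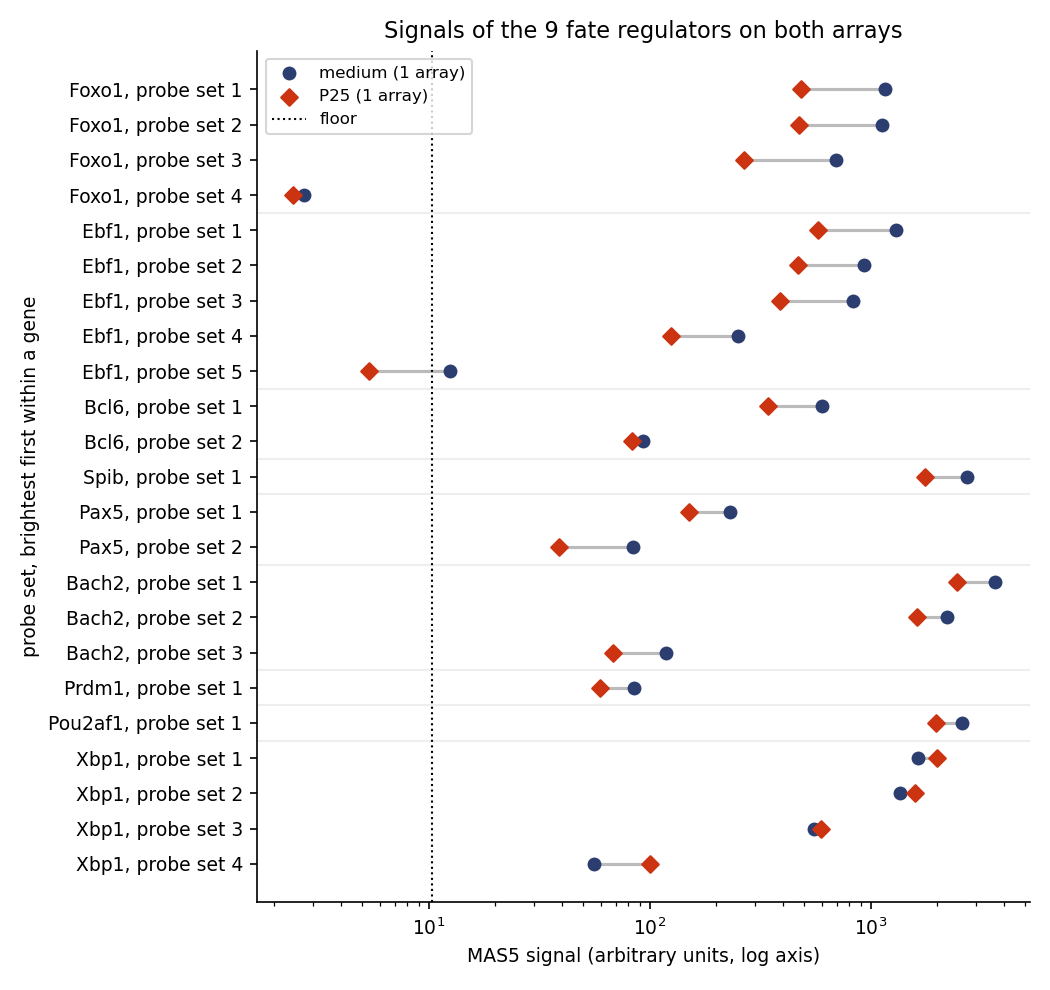
MAS5 signal (arbitrary units, log axis) of each of the 23 probe sets on the medium array (blue circles) and the P25 array (red diamonds), grouped by gene from the lowest to the highest log2 ratio. The P25 point lies left of the medium point for every probe set of the 8 lower genes, and right of it for the 4 probe sets of Xbp1; 1 Foxo1 probe set lies under the floor of 10.3 (dotted line) on both arrays and 1 Ebf1 probe set on the P25 array.

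Foxo1 was the lowest of the 9. Its brightest probe set had a signal of 485 with P25 against 1162 with medium, the second 473 against 1129 and the third 268 against 693. All 3 were at least 2-fold lower, at log2 ratios of -1.26, -1.26 and -1.37. The 3 were designed from the same sequence record, so they are not independent readings of the transcript. The remaining Foxo1 probe set was below the floor on both arrays (2.42 against 2.72) and gives no ratio. Of 12897 genes Foxo1 ranked number 470 from the lowest, and 246 other genes had a log2 ratio within 0.1 of it. Among the 781 genes with 3 or more probe sets of 100 or more on both arrays, the 3 brightest were all at least 2-fold lower in 15 (1.92%), and Foxo1 was 1 of them.

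Ebf1, which specifies the B lineage, followed at 577 with P25 against 1297 with medium, a log2 ratio of -1.17 (2.25-fold lower). Its next probe sets read 469 against 933, 388 against 833 and 125 against 251. These 4 lay close together and astride the threshold, at log2 ratios from -1.17 to -0.99, and 3 of the 4 were at least 2-fold lower. The dimmest probe set of Ebf1 read 5.39 against 12.4, so its P25 signal was at the floor and it gives a bound of at least 1.21-fold lower. Of the 4 readings above the floor, 3 came from a common sequence record.

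The promoter sequences of these 2 genes and of Xbp1, the member on the other side of 0, are shown because they are the members that stand at the ends of the order. Each is the 250 bases before the gene's start in RefSeq's GRCm38.p6 annotation, forward strand, at chr3:52268087-52268336 for Foxo1, chr11:44617850-44618099 for Ebf1 (the first of its 2 windows in the table) and chr11:5520391-5520640 for Xbp1. Capitals mark matches to any of 8 short motifs of the factors themselves, searched on both strands.
Foxo1: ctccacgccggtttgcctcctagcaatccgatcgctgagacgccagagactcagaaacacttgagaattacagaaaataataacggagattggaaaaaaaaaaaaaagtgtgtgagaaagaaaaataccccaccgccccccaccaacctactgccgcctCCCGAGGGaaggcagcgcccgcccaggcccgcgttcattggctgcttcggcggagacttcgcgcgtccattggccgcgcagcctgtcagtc
Ebf1: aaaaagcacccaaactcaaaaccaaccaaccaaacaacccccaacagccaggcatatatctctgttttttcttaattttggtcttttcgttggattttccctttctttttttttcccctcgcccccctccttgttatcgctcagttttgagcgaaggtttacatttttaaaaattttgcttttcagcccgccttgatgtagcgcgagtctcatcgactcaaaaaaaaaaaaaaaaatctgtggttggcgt
Xbp1: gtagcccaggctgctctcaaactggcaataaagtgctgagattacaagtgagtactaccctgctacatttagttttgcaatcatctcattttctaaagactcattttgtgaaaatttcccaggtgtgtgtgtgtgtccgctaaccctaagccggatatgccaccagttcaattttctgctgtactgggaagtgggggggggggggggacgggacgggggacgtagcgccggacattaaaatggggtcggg
The single match among them is the EBF1 core, CCCNNGGG, 91 to 84 bases before the start of Foxo1. That core occurred in 11.8% of all 32851 windows of this length, so a match in 1 window is common. The windows of Ebf1 and Xbp1 shown hold none of the 8 motifs, which says only that these letters are absent there. The Ebf1 window shown had 40% G and C and its other window 52%, against a mean of 53.2% over all windows.

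Pax5, the factor that commits cells to the B lineage, read 150.1 with P25 against 231 with medium on its brighter probe set and 38.7 against 84.2 on the dimmer. Both were lower with P25, at log2 ratios of -0.63 and -1.12, and they straddle the threshold. Spib, an ETS factor related to PU.1, read 1757 against 2716 on its single probe set, a log2 ratio of -0.63. Pou2af1, which OCT1 and OCT2 recruit to octamer sites, read 1979.7 against 2576, a log2 ratio of -0.38 and the smallest difference among the 8 lower members. Spib and Pou2af1 were bright on both arrays, so the floor did not enter their ratios. Among all measured genes, 16.7% had a log2 ratio at or below that of Pax5, and 27.4% at or below that of Pou2af1.

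The regulators that hold back plasma cell differentiation were lower with P25, within 2-fold on every probe set. Bcl6 read 341 with P25 against 602 with medium, a log2 ratio of -0.82, and 83.4 against 93.5 on its dimmer probe set, a log2 ratio of -0.16. The dimmer reading puts the genewise median at -0.49. Both Bcl6 probe sets came from a common sequence record. Bach2, a repressor of Prdm1, read 2445 against 3636, 1622 against 2208 and 68.0 against 118, with log2 ratios from -0.80 to -0.44. Its 3 probe sets came from separate sequence records and had the same sign.

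The plasma cell regulators lay on opposite sides of 0. Prdm1 was dim, at 59.2 with P25 against 85.1 with medium on its single probe set, a log2 ratio of -0.52. Xbp1 read 1987 against 1635 on its brightest probe set, 1588 against 1349.6 on the second, 594 against 555 on the third and 100.1 against 56.2 on the dimmest. All 4 were higher with P25 and within 2-fold, at log2 ratios of 0.28, 0.24, 0.10 and 0.83. The third and the dimmest came from a common sequence record. XBP1 protein becomes active when the IRE1 nuclease splices its messenger RNA, and these values do not separate the spliced form. Of all measured genes 65.6% had a log2 ratio at or below that of Xbp1, and 1354 other genes lay within 0.1 of it.

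**Figure D2:**
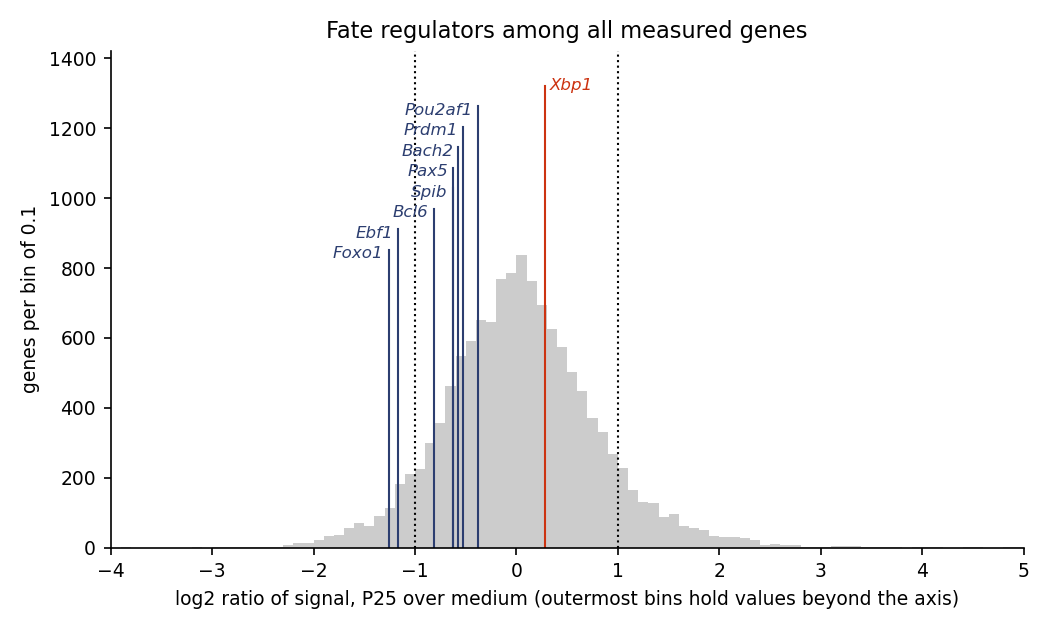
Histogram of the log2 ratio of P25 over medium for the 12897 measured genes in bins of 0.1 (grey), with a line for each regulator at the value of its brightest probe set (blue below 0, red above 0); line heights only separate the names. Foxo1 (-1.26) and Ebf1 (-1.17) lie beyond the dotted 2-fold line on the lower side, and Xbp1 (0.28) is the member right of 0.

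The motif search gave short matches in the windows of other members, shown as 30 bases around each with the match named for it in capitals. They are given because a motif named for a member occurs there as sequence. Binding was not tested. Pax5 (chr4:44710820-44710849, reverse strand) and Pou2af1 (chr9:51213618-51213647, forward strand) hold the XBP1 core GACGTG. Prdm1 (chr10:44458962-44458991, reverse strand) holds the forkhead site GTAAACA, and Spib (chr7:44532118-44532147, reverse strand) the EBF1 core, of which a second match overlaps the first by all but 1 base. In the second of its 2 windows, Bcl6 (chr16:23981433-23981462 and chr16:23981353-23981382, reverse strand) holds the BCL6 core TTCCNNGAA at 2 places, the first of which overlaps a match to the BLIMP-1 core GAAAGT.
Pax5: cgccgggggcgcGACGTGtctggggacatc
Pou2af1: ggaggatgtgatGACGTGgcccctctcagc
Prdm1: atcgtagtgtggGTAAACAtggagggcaag
Spib: cccatggcccgCCCCTGGGggtaggtaggc
Bcl6 first: caggccgcggcTTCCTGGAAagttacttct
Bcl6 second: gatcgactacgTTCCGGGAAtgagagggct
Over the 11 windows of the 9 genes, the EBF1 core was in 2, the XBP1 core in 2, the BLIMP-1 core in 2 (Bcl6 and the second window of Ebf1), and the forkhead site and the BCL6 core in 1 each. Of all windows, 5.20% held the XBP1 core, 12.3% the BLIMP-1 core, 3.17% the forkhead site and 4.06% the BCL6 core. The octamer ATTTGCAT (1.60% of all windows), the ETS site GAGGAAGT (2.44%) and the BACH core TGAGTCA (4.46%) were in no window of a member.

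B cells make up a large share of splenic APCs, and their identity genes were lower with P25 as well. The median log2 ratio of 19 measured B cell identity genes was -0.66. On the lower side 5 of them passed 2-fold, against 7.22% of all genes, and on the higher side none, against 9.43%. The lowest were Ralgps2 (433 against 1466), the surrogate light chain partner Vpreb3 (155 against 518) and the SRC family kinase gene Blk (708 against 1822). The highest were the chemokine receptor gene Cxcr5 (1929 against 1576), Ms4a1, which encodes CD20 (5911 against 5041), and Ly6d (4109 against 4144), at log2 ratios of 0.29, 0.23 and -0.01. All 19 had signals of 100 or more on both arrays, as did 6 of 11 measured neutrophil markers, 4 of 12 of macrophages and monocytes and 1 of 10 of conventional dendritic cells. The summed signal of the 19 genes was 43810 with P25 against 61822 with medium. In RNA of a cell mixture, fewer B cells and less RNA per B cell cannot be told apart.

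Set against that median, the regulators spread to both sides. Pax5, Spib, Bach2 and Prdm1 lay within 0.15 of the B cell median (differences of 0.04, 0.04, 0.09 and 0.14), and Bcl6 was 0.15 below it. Foxo1 was 0.60 below and Ebf1 0.51 below, and 16 of the 19 B cell genes had a higher log2 ratio than either. Pou2af1 was 0.28 above, and Xbp1 0.95 above, higher than 18 of the 19. Over the 8 settings tried, the difference from the B cell median ran from -0.60 to -0.54 for Foxo1, from -0.51 to -0.34 for Ebf1 and from 0.92 to 0.95 for Xbp1. For Bcl6 it ran from -0.15 to 0.17 and for Pax5 from -0.21 to 0.33, so their side of the median depended on the setting. For Prdm1, read on 1 dim probe set, it ran from 0.14 to 0.52, so its closeness to the median also depended on the setting. Other floors and median or spike-in scaling could not move these differences. The signals lay above each floor, and such scaling shifts a gene and the median alike. Only 16 added, loess and the median over probe sets could move them.

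Genes that FOXO1 is known to activate were lower with P25 along with Foxo1. The median log2 ratio of the 19 measured was -1.32. As many as 12 passed 2-fold on the lower side, where 7.22% of all genes did, and none on the higher. The lowest were the ubiquitin ligase gene Fbxo32 (32.4 with P25 against 134 with medium), the insulin receptor substrate gene Irs2 (14.1 against 56.7) and the kinase-related gene Trib2 (167 against 615). Klf2, a factor of quiescent lymphocytes, read 799 against 2711, and its target S1pr1, the receptor by which lymphocytes leave tissue, 225 against 646. The highest were Cited2 at a log2 ratio of 0.40, Sesn1 at -0.39 and the death gene Bcl2l11 at -0.65. Rag1 and Rag2, recombinase genes of developing lymphocytes, were below the floor on both arrays. In 6 of the 12 lower genes a second probe set was above the floor on both arrays, and it was at least 2-fold lower in all 6 (Ccng2, Pik3ip1, Trib2, Rbl2, Txnip and Fbxo32). Over all genes with such a pair and a brightest probe set at least 2-fold lower, the second was so in 145 of 353 (41.1%). Those 353 genes were not matched to the 6 in signal or in size of difference. The FOXO1 list, like the others, was chosen with earlier results of these data known. The list holds Bcl6, a member. Macrophage and neutrophil markers were lower on the same arrays, and the part of cell composition in this result was not tested.

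Other transcription factors of the B lineage mostly lay on the lower side. Of 33 measured, 22 had a log2 ratio below 0, against 48.6% of all genes. The 33 had a median log2 ratio of -0.52. Past 2-fold on the lower side were 6, where 7.22% of all genes were, and on the higher side none, where 9.43% were. After Klf2 the lowest were Id3, an inhibitor of E proteins (392 against 1202), and the homeobox gene Hhex (577 against 1402). The highest were Zbtb32 (126 against 71.2), Runx3 (379 against 242) and Irf8 (4275 against 2939), at log2 ratios of 0.83, 0.65 and 0.54. Irf4, which acts with BLIMP-1 in plasma cells, read 952 against 792, a log2 ratio of 0.27. In 3 of the 6 lower factors a second probe set was above the floor on both arrays. It was at least 2-fold lower in 1 of them (Runx1).

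Plasma cell genes did not share the direction of Xbp1. The 16 measured had a median log2 ratio of -0.48. Of them 5 passed 2-fold on the lower side, against 7.22% of all genes, and 1 on the higher, against 9.43%. The lowest were Sdc1, which encodes the plasma cell surface marker CD138 (89.9 with P25 against 298), Cd28 (22.5 against 56.0) and Tnfrsf17, the gene of BCMA, which was at the floor with P25 and at least 2.26-fold lower. Jchain, the joining chain of secreted IgM and IgA, read 2635 against 4525, a log2 ratio of -0.78. The highest were Slamf7 (408 against 186), the cytokine gene Il10 (34.8 against 22.7) and the elongation factor gene Ell2 (622 against 440), at log2 ratios of 1.13, 0.61 and 0.50. The count of lower genes was 2 to 5 over the settings tried.

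Genes of the secretory pathway listed as dependent on XBP1 mostly lay on the higher side, as did Xbp1. Their dependence on XBP1 in these cells was not tested. The 37 measured had a median log2 ratio of 0.32, with 25 above 0, where 6628 of all 12897 measured genes were. Past 2-fold on the higher side were 3, where 9.43% of all genes were, and past it on the lower side none. The highest were Sdf2l1 (379 against 139), Manf (2053 against 838) and the disulfide isomerase gene Pdia3 (2051 against 995), all of the endoplasmic reticulum. The lowest were Txndc5 (log2 ratio -0.74), the stress sensor gene Atf6 (-0.57) and Txndc11 (-0.56), and Kdelr3 was below the floor on both arrays. The share at least 2-fold higher, 3 of 37, was near that over all genes, so by the 2-fold count the list did not stand apart. By the median over probe sets that count was 5.

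Germinal centre genes went both ways. Past 2-fold on the lower side were 4 of 14 measured, against 7.22% of all genes, and on the higher side 3, against 9.43%. The median log2 ratio was -0.19. Rgs13 was at the floor with P25 (7.98 against 66.9), at least 6.50-fold lower, S1pr2, which confines cells to the germinal centre, read 14.0 against 63.1, and Neil1 115 against 333. The death receptor gene Fas read 274 against 40.2, the methyltransferase gene Ezh2 1389 against 506, and Ube2c, a gene of mitosis, 282 against 138. Gcsam was below the floor on both arrays. Genes that BCL6 is known to repress had a median log2 ratio of 0.43 over 15 measured. Past 2-fold on the higher side were 6, where 9.43% of all genes were, and on the lower side 1, where 7.22% were. The highest were Cxcl10 (482 against 16.5), Ccnd2, which encodes cyclin D2 (5556 against 578), and the activation marker Cd69 (1282 against 215). Cxcl10 and Irf7 (431 against 91.8) of this list are also induced by interferon. The lowest were S1pr1, the migration receptor gene Gpr183 (538 against 864) and Prdm1 itself. In 3 of the 6 higher genes of this list a second probe set was above the floor on both arrays. It was at least 2-fold higher in 1 of them (Ccnd2). By the median over probe sets 4 genes of the list were at least 2-fold higher.

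**Figure D3:**
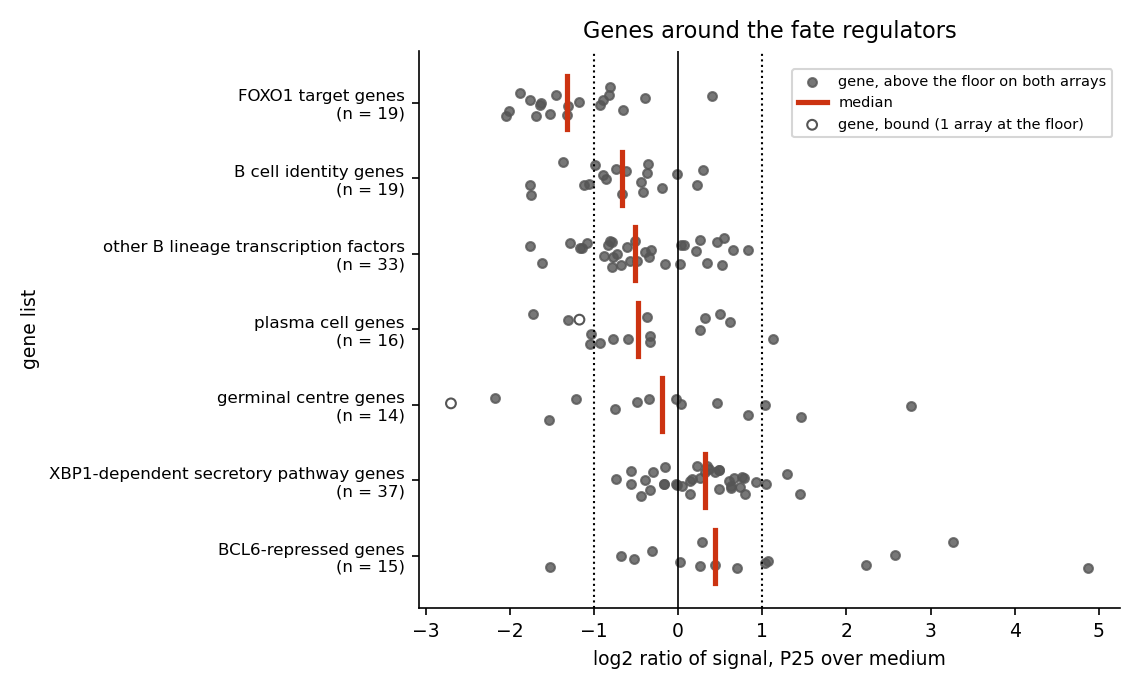
Log2 ratio of P25 over medium of each measured gene in 7 lists around the fate regulators (points, spread vertically only to separate them; open points are bounds) with the median of each list (red bar) and dotted lines at 2-fold. The FOXO1 target list has its median at -1.32 and 12 of 19 genes beyond the lower line, while the medians of the secretory list (0.32) and the BCL6-repressed list (0.43) lie above 0.

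Several regulators are also expressed outside B cells, so the markers of other cells in the spleen were read on the same arrays. T cell markers were dim: of 12 named on the array, Cd3d, Cd3e, Cd4 and Cd6 were below the floor on both arrays, and the summed signal of the 12 was 179 with P25 against 212 with medium. The 8 measured T cell markers had a median log2 ratio of -0.23, with Cd28 past 2-fold on the lower side and none on the higher. On the lower side, 9 of 12 macrophage and monocyte markers and 8 of 11 neutrophil markers passed 2-fold, against 7.22% of all genes. None of either list did on the higher side, against 9.43%. Their medians were -1.36 and -1.10, and their summed signals 1451 against 3429 and 7315 against 13605. C1qa, C1qc and Marco of the first and Cxcr2 of the second were below the floor on both arrays. The 10 markers measured for conventional dendritic cells had 3 past 2-fold on the lower and 2 on the higher side (median -0.75, summed signal 765 against 976, Xcr1 below the floor on both arrays). Plasmacytoid dendritic cells, a cell type that needs SPI-B, had 2 of 8 measured markers past 2-fold on each side (median -0.40, summed signal 1928 against 1786). Most of that sum was Tcf4 (1134 against 1265), also listed as a B lineage factor, and Bst2 (480 against 113). Of the 8 markers, 6 had a log2 ratio below 0. Stromal cells, which can express Ebf1, had 4 of 10 markers measured and a summed signal of 81.5 against 61.1, with Col1a1, Col3a1, Pdgfrb, Cxcl12, Cxcl13 and Dcn below the floor on both arrays. Erythroid markers had 2 of 6 measured, neither past 2-fold, a median of -0.10 and a summed signal of 63.3 against 52.3, with Hba-a1, Alas2, Klf1 and Ermap below the floor on both arrays. The part of these cells in the members' ratios was not tested.

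The direction of all 9 members held under each of 7 other settings of floor, scaling and choice of probe set. Another floor could not change it, since the brightest probe set of each member lay above every floor. Foxo1 ranged from -1.39 to -1.11 and Ebf1 from -1.32 to -1.01, so both stayed at least 2-fold lower, Ebf1 narrowly. With median scaling the brightest Ebf1 probe set read -1.02, while the next brightest read -0.85, -0.96 and -0.86, within 2-fold. Xbp1 ranged from 0.10 to 0.43, and Pou2af1, the least lowered, from -0.56 to -0.23. Bringing both arrays to one median moved the median of all genes by 0.13 and matching the 18 hybridization spike-ins moved it by 0.13. The calls over all genes, 1216 higher and 931 lower (56.6% higher), became 1567 and 642 (70.9% higher) and 1581 and 626 (71.6% higher).

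**Figure D4:**
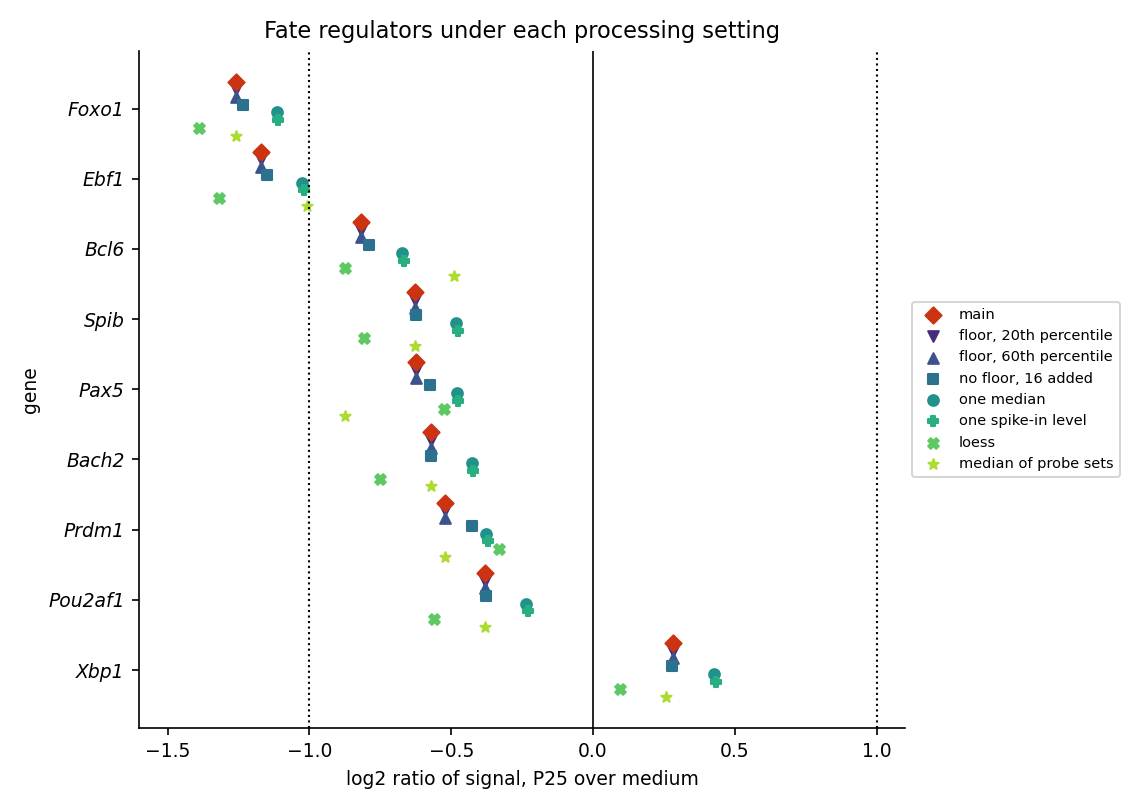
Log2 ratio of P25 over medium of each regulator under the main setting (red diamonds) and 7 alternatives of floor, scaling and probe set (other symbols), with dotted lines at 2-fold. Each gene keeps its side of 0, Foxo1 and Ebf1 stay beyond the lower 2-fold line, and loess gives the lowest values for Foxo1 (-1.39) and Ebf1 (-1.32).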

How the data were processed

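RNA of splenic APCs was hybridised to 1 array per condition after RNA of 3 experiments was mixed, per the series' design text and the labels. The authors deposited an intensity per probe set, the MAS5 signal from GCOS, per the submitters' processing notes. Not given in the sources used here are the scaling target and detection calls. Groups follow the treatment label. Each array gave 45101 probe sets, 64 of them controls. The number of arrays limits the precision, and scan batch and treatment cannot be told apart.

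Ratios, the floor (40th percentile), probe set choice and the 2-fold threshold were computed in Python 3.11.15 and pandas 2.3.3, with loess by statsmodels 0.14.6 (span 0.3). The method was tested on simulated arrays whose planted changes were larger than any member's, so the test does not cover differences of the members' size. Names came from the platform annotation, updated by Entrez number through RefSeq (GRCm38.p6): 34945 probe sets had 1 symbol, 932 several and 9160 none. Of 244 listed symbols 221 were on the array, and 10 belong to more than 1 list. In each list up to the 3 highest and 3 lowest genes are named, as are genes below the floor on both arrays, and others were chosen after their values were seen. The members, the 14 lists and the motifs were chosen with earlier results of these data known. All 9 members matched a RefSeq promoter window. Alternatives were another floor (20th or 60th percentile), 16 added in place of a floor, median, spike-in or loess scaling, the median over probe sets, and thresholds of 1.5-fold and 3-fold.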

Additional observations from a re-analysis of the deposited data

How the results depend on the processing

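No paired analysis was possible because each condition has 1 array, and no replicate could be left out. For the members and the 7 main lists 236 values were compared. Of these, 222 moved by less than the probe set disagreement of 0.44 or, for a count, by at most 1.5 times. In this comparison a reversal of sign was looked for only where the main log2 ratio was at least 1 in size. These were Foxo1, Ebf1 and the FOXO1 target median, and none of them reversed. The count of members at least 2-fold lower stayed at 2 in 7 alternatives, and was 5 at a threshold of 1.5-fold and 0 at 3-fold, where 18.3% and 1.64% of all genes were lower. B cell identity genes at least 2-fold lower numbered 3 with median scaling, 3 with spike-in scaling and 8 with loess, against 5. Plasma cell genes at least 2-fold lower numbered 2 with the 60th percentile floor and 3 each with 16 added, median scaling, spike-in scaling and the median over probe sets, against 5. Germinal centre genes at least 2-fold lower numbered 2 with the 60th percentile floor, against 4. Other B lineage factors at least 2-fold lower numbered 3 by the median over probe sets, against 6, and 1 was at least 2-fold higher with loess. Secretory genes at least 2-fold higher numbered 5 by the median over probe sets, against 3. The cause of these moves was not tested. Probe set disagreement went from an SD of 0.58 to 0.44 at signals of 100 or more, and the dim readings (Prdm1, the second probe sets of Pax5 and Bcl6, the dimmest of Bach2, Ebf1 and Xbp1) are the least certain.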
